A study of Mus musculus with 36 samples.

Results

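The blocks described here are stretches of the mouse genome in which B6 and C3 mice shared nearly every base. The autosomes were cut into bins of 100 kb, and a bin with at least 200 CpGs was kept where the deposited list of single-nucleotide variations (SNVs) between the strains held 0 or 1 position. This gave 7573 of 23819 bins, or 757.3 Mb. Within them, 475561 of all 1456902 autosomal windows of 500 bp had at least 5 CpGs and at least 30 counts in each animal, and these windows were compared. The rule used the SNV list and the read depth, and it used no methylation value.

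Whole-genome bisulfite sequencing gave the liver methylation of 24 mice. The parents were 3 male and 3 female C57BL/6N mice (B6) and 3 male and 3 female C3H/HeN mice (C3). The offspring were 3 males and 3 females of B6C3F1, which had a B6 dam and a C3 sire, and 3 males and 3 females of C3B6F1, which had a C3 dam and a B6 sire. All mice were untreated, were sacrificed at 20 weeks and came from 3 families of sire, dam, son and daughter per cross, so that the male parents were sires, the female parents had borne litters and the F1 females were virgin. F1 animals therefore shared parents with each other and with the parent groups, and p-values measure the spread between these animals. Sequencing gave 19.4 to 32.8 counts per autosomal CpG and animal. Methylation is given as the percent of counts at the CpGs of a window that were methylated, and counting error is only part of its spread between animals. Promoters of hepatocyte genes on the marker list, such as Alb and Apoa1, were at medians of 17.3 to 30.6%, and those of leukocyte genes were at 76.4 to 88.1%. Promoters of stellate and bile duct genes were also low, at 2.08 to 22.5% and 7.48 to 32.5%, so that low methylation did not single out hepatocyte genes. Bulk liver holds several cell types, and a change in their shares cannot be told apart from a change within a type.

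Cytosines in CpG dinucleotides are methylated at most sites of the mammalian genome, and the maintenance methyltransferase copies the pattern after each replication. Promoters rich in CpGs and active enhancers are the usual exceptions. The pattern at a site can follow the local sequence of its own chromosome, factors made elsewhere in the genome, such as KRAB zinc finger proteins that silence retroelements, or the parent of origin, as at imprinted genes. In an F1 animal both parental chromosomes lie in the same nucleus. A site set only by its own chromosome is then read as the mean of the parents, and a site set by a factor from elsewhere need not be.

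The blocks were spread over all 19 autosomes, from 19.1% of the bins of chromosome 17 to 50.2% of those of chromosome 10. Of the bins, 5437 held 0 SNVs and 2136 held 1, against a median of 130 and a maximum of 889 in the other bins. Neighbouring bins joined into 1024 runs with a median length of 0.4 Mb. The 259 runs of at least 1 Mb held 491.1 Mb, and the longest ran over 8.5 Mb at chr8:44500001-53000000. The windows had a median of 7 CpGs and lay a median of 91608 bp from the nearest SNV, whereas windows of the other bins lay 481 bp from one. All CpGs of the mm9 reference were present in the deposited table in 98.9% of the windows, against 85.1% in the other bins. Shared sequence is meant here only as far as this list goes, since insertions, deletions and larger rearrangements between the strains are not in it.

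The sequences of 6 regions that differed between the strains are printed from the mm9 plus strand, because neither strain has a listed SNV within any of these stretches. CpGs are in capitals, and every one of them was in the deposited table. The first, at chr13:4607756-4608055, spans part of the start of Akr1e1, which encodes an aldo-keto reductase. The second, at chr6:40392720-40393019, lies at the start of Wee2, an oocyte kinase that holds back meiosis. The third, at chr9:14428001-14428300, is in an intron of Amotl1, which encodes a cell junction protein. The fourth, at chr4:24817399-24817698, is intergenic near Ndufaf4, an assembly factor of respiratory complex I. The last pair, at chr13:4942062-4942361 and chr6:37414153-37414452, are intergenic, were the most different regions of all and share long stretches with each other.
Akr1e1 start: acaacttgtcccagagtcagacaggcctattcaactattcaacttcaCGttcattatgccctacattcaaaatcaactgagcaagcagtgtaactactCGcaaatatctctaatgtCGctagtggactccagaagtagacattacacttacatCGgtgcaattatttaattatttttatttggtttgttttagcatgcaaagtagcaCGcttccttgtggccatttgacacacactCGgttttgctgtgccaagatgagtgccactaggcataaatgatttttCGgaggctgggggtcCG
Wee2 start: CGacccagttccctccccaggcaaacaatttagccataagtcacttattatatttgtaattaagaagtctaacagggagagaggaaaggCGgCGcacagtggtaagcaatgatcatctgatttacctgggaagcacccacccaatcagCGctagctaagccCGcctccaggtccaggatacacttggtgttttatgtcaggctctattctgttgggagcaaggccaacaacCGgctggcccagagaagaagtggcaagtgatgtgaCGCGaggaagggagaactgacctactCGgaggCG
Amotl1 intron: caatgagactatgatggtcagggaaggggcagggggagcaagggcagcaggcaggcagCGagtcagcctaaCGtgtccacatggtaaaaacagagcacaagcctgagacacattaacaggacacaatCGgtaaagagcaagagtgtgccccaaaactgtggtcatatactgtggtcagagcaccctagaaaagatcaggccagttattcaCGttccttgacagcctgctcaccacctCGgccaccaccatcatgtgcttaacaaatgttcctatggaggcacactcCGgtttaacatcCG
Ndufaf4 region: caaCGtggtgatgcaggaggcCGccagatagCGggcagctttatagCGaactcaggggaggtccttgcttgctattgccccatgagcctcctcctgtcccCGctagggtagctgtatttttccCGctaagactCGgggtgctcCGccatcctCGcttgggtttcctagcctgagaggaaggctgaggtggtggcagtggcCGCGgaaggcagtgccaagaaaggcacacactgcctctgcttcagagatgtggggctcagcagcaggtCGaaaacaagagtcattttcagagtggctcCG
Gm5444 region: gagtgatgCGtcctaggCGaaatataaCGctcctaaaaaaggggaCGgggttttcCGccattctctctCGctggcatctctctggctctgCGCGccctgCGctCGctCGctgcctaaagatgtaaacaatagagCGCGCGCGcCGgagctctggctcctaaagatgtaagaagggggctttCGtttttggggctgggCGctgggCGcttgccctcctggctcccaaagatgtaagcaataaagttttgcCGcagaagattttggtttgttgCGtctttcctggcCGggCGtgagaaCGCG
Creb3l2 region: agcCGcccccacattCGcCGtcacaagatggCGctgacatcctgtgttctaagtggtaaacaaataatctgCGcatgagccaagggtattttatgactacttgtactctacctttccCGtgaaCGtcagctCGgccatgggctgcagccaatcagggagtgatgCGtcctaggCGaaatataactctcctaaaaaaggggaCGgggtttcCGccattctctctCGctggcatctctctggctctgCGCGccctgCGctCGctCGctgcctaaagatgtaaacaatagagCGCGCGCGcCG

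The strains differed in few windows of the blocks. A window was called where limma gave a Benjamini-Hochberg adjusted p below 0.05 over all 1456902 windows and the mean methylation of the strains differed by at least 20 percentage points. Between the 6 B6 and the 6 C3 parents, 267 windows of the blocks were called (0.0561%), against 0.494% of all autosomal windows and 0.705% of windows in bins with 2 or more SNVs. At this minimum 132 windows were higher in B6 (0.0278%, against 0.245% of all windows) and 135 higher in C3 (0.0284%, against 0.249%). With a minimum of 10 points the split was less even, with 1054 of 2910 windows higher in B6 and the others higher in C3. Over all windows of the blocks the median difference was -0.649 points, with B6 lower. The split at 10 points was not taken outside the blocks, so it cannot be called particular to them. In all, 13264 windows of the blocks (2.79%) passed the adjusted p alone, whatever the size of the difference, against 6.63% of all windows. The quasi-binomial model passed 7329 windows of the blocks by this measure. Joined within 1000 bp, the windows called at 20 points made 200 regions in 183 bins on all 19 autosomes, of which 101 were higher in B6 and 99 in C3.

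The share of windows called rose with the SNVs of the bin. It was 0.0554% in bins with 0 SNVs, 0.0581% with 1, 0.102% with 2 to 9, 0.194% with 10 to 49 and 0.385% with 50 to 99. It reached 0.699% with 100 to 199 SNVs, 1.33% with 200 to 499 and 2.14% with 500 to 889. At the edge of the rule, bins with 1 SNV had 77 called windows of 132463, bins with 2 SNVs had 30 of 44960 (0.0667%) and bins with 3 had 22 of 25112 (0.0876%). The comparison of sires with dams gave no such slope, since 0.127% of windows were called in bins with 0 SNVs and 0.0498% in those with the most. Counts also fell off in C3 as SNVs rose, from 0.966 of the B6 counts in bins with 0 SNVs to 0.735 in those with 500 to 889, and the part of depth in the slope was not tested.

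**Figure D1:**
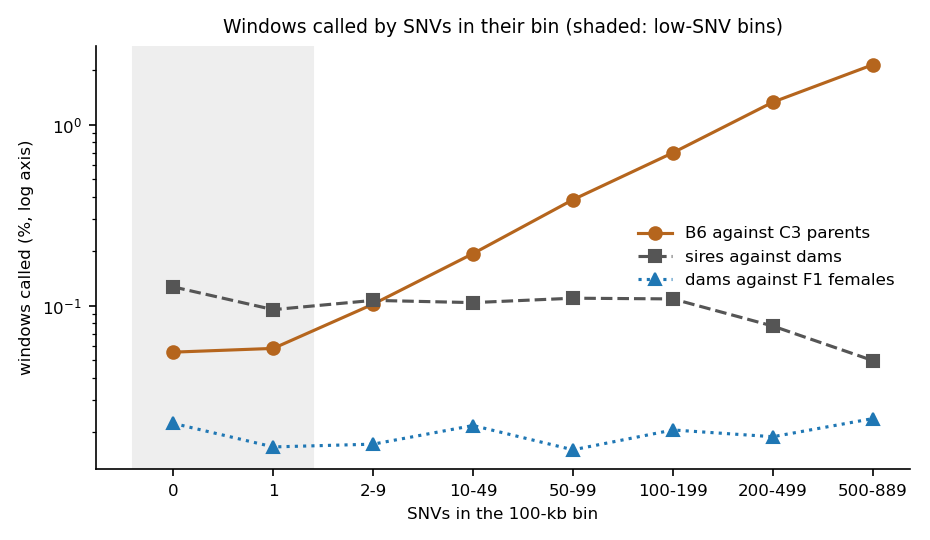
Percent of windows called (log axis) against the number of SNVs in their 100-kb bin, for B6 against C3 parents, sires against dams and dams against F1 females, with the low-SNV blocks shaded. The strain comparison climbs from 0.0554% to 2.14%, while sires against dams goes from 0.127% to 0.0498%.

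Taken within each sex, the median strain difference of the 267 windows was 25.5 points in the sires and 26.0 points in the dams, and 170 reached 20 points in both. These values describe windows that were called on both sexes together. All 6 animals of a strain lay above all 6 of the other in 233 of the 267, where 1.28% of all windows of the blocks and 3.5% of all autosomal windows had no overlap. Most differences were moderate, with a median of 25.3 points, 200 windows under 30 points and 12 of at least 50. No window was called for a strain difference that differed between sires and dams, against 0.00151% of all autosomal windows. By limma 24198 windows of the blocks (5.09%) had an unadjusted p below 0.05 for this contrast, near the share that chance gives. Of these windows 116 had at least 20 points, and the quasi-binomial model also called 0.

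The called windows lay far from SNVs, as did the blocks as a whole. The nearest SNV was a median of 95602 bp away, against 91608 bp for all windows of the blocks. At least 10 kb from one were 243 windows (91.0%, against 94.1%), and 125 were at least 100 kb away (46.8%, against 46.5%). Within 1 kb were 4 (1.50%, against 0.694%), and 1 contained one, against 665 of all 475561. Start sites of protein-coding genes were within 1 kb of 46 windows (17.2%), against 5.83% of all windows of the blocks. Exons were overlapped by 21.0% against 14.6%, and 28.8% were intronic against 38.3%. The median number of CpGs was 10 against 7. In 76 of the called windows (28.5%) at least 50% of the 31-base words recurred elsewhere in mm9, against 10.5% of all windows, and 191 calls remain without such windows. Depth was even between the strains in most of them, with a median ratio of C3 to B6 counts of 0.955 and 12 windows outside 0.67 to 1.5. Of the windows with uneven depth, 6 of 385 were called where C3 had under 0.67 of the B6 counts (1.56%) and 6 of 515 where it had over 1.5 times (1.17%), against 255 of 474661 others (0.0537%). F1 depth lay between the parents in 384 of the 385, in all 515 and in 41.6% of the others. Windows picked for unlike parental depth favour such a place of the F1 mean, so these counts are a description.

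At the level of the whole blocks the strains were close. Methylation summed over all 475561 windows was 75.2% ± 0.785 (SD, n = 6) in B6 and 76.2% ± 0.378 (SD, n = 6) in C3, a difference of -0.949 points with B6 lower (two-sided exact permutation test, p = 0.0260, 0.0981 adjusted over 8 tests of levels and depth). The difference was -0.258 points between the males (exact p = 0.3, adjusted p = 0.343) and -1.64 points between the females (exact p = 0.1, adjusted p = 0.133), where 3 against 3 animals cannot go below 0.1. The contrast of these 2 differences was 1.38 points (exact permutation test, p = 0.05, smallest possible 0.005, adjusted p = 0.1). Other bins gave 74.0% in B6 and 74.9% in C3 (exact p = 0.0368, adjusted p = 0.0981), so that the same small offset was measured outside the blocks. Leaving out C3 female replicate 2 changed the call for the blocks (-0.855 points, exact p = 0.0584). Depth did separate them, since the ratio of counts per CpG in the blocks to that in the other bins was 0.974 ± 0.00201 (SD, n = 6) in B6, 1.05 ± 0.00113 (SD, n = 6) in C3 and 1.01 ± 0.0022 (SD, n = 12) in F1 animals. Between B6 and C3 this was a log2 difference of 0.11 (exact permutation test, p = 0.00216, the smallest possible, adjusted p = 0.0173), and of 0.06 in windows with at least 100 counts in each animal.

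Start sites gave some of the clearest differences. The named regions here and below were picked for large differences and for B6 and C3 parents that did not overlap. A lack of overlap between the strains was therefore required by the choice, while the place of the F1 animals was not. The region at the start of Akr1e1 (chr13:4607501-4608500, 18 CpGs, overlapping an exon) was 584149 bp from the nearest SNV. Its methylation was 3.33, 6.22 and 8.74% at the lowest, median and highest of the 6 B6 parents. The 6 C3 parents were at 63.2, 75.1 and 83.1%, and the 12 F1 animals at 49.0, 56.3 and 70.1%. No B6 animal came near any other group, while the highest F1 animals overlapped the lowest C3 animals. The means were 6.16% ± 1.96 (SD, n = 6) and 74.2% ± 7.22 (SD, n = 6), and the log2 ratio of methylated to unmethylated counts differed by -5.83 (SE 0.25, adjusted p = 2.46e-17) in the window of largest difference. F1 animals were at 57.5% ± 7.25 (SD, n = 12), nearer to C3. In the profile of single CpGs the strains were alike at the CpG at -672 bp from the middle of the region, with 98.9% in B6 and 96.6% in C3, and apart at the next CpG, with 7.05% and 79.4%.

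The start of Samd12 (chr15:53733001-53734500, 51 CpGs, exonic, 97398 bp from an SNV) had the F1 animals on the other side. The B6 parents lay at 4.52, 6.57 and 7.62% and the C3 parents at 27.6, 45.9 and 55.0%. B6C3F1 animals lay at 6.33, 9.71 and 11.5% and C3B6F1 animals at 16.4, 22.3 and 27.9%. The crosses did not overlap, and the cross with the C3 dam was the higher. It was the only 1 of the 24 named regions in which they did not. Strain means were 6.46% ± 1.15 (SD, n = 6) and 44.1% ± 9.60 (SD, n = 6), with a log2 ratio difference of -5.41 (SE 0.29, adjusted p = 2.47e-15). Cross means were 9.51% ± 1.72 (SD, n = 6) and 22.9% ± 4.14 (SD, n = 6).

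At the start of Wee2 (chr6:40392501-40394000, 30 CpGs, exonic, 15822 bp from an SNV) the F1 animals lay close to C3. The B6 parents were at 44.3, 51.7 and 57.9%, the C3 parents at 84.3, 86.8 and 87.6%, and the F1 animals at 78.8, 81.9 and 86.7%. B6 stood apart from both other groups, and the F1 animals overlapped C3. The log2 ratio difference between the strains was -3.65 (SE 0.18, adjusted p = 6.62e-16), and the F1 mean was 82.0% ± 2.10 (SD, n = 12). The start of Trim7, which encodes a ubiquitin ligase (chr11:48639501-48640000, 50 CpGs, exonic), was nearly unmethylated in B6 at 0.132, 0.463 and 1.21%. C3 animals were at 27.3, 42.7 and 50.5% and F1 animals at 11.7, 19.7 and 36.6%. Of all C3 and F1 animals, none was as low as the B6 animals. C3 had 1.88 times the counts of B6 there, and most 31-base words of the region (89.8%) recurred in mm9. The reads could thus come from more than a single copy, and this was not tested. Of the 24 named regions, 8 had at least 50% of their 31-base words recurring in mm9, and 6 had none recurring.

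Gene bodies held further regions. In the intron of Amotl1 (chr9:14428001-14429000, 14 CpGs, 687608 bp from an SNV) B6 parents were at 44.4, 48.0 and 50.4%, C3 parents at 83.8, 87.6 and 91.4% and F1 animals at 62.9, 66.9 and 70.7%. The 3 groups did not overlap, and the F1 mean of 67.0% ± 2.24 (SD, n = 12) lay at 0.48 of the way from B6 to C3. The log2 ratio difference was -4.10 (SE 0.21, adjusted p = 9.36e-16). In Amotl1 or within 5 kb of it 4 windows were called, and 2 of them were higher in B6. Some CpGs outside the region went the other way. Among them were a pair at -693 and -674 bp from its middle, singled out after their values were seen. This pair was at 75 and 77.0% in B6, 10.3 and 9.17% in C3 and 53.1 and 51.9% in F1 animals. The counts summed over C3 were 126 and 109 at these CpGs, against 212 and 204 in B6.

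Other gene regions higher in C3 were an intron of the collagen gene Col13a1 (chr10:61435001-61435500) and an exon of Afap1l1 (chr18:61897001-61897500). The strain means were 23.0 and 62.0% at Col13a1 and 32.9 and 67.6% at Afap1l1. F1 means of 43.7 and 54.2% were within the middle part of the range in each. Higher in B6 were introns of Sft2d2 (chr1:167122501-167123500), with 56.1% in B6, 16.9% in C3 and 44.1% in F1 animals, and of 2210404J11Rik (chr17:15190501-15192000), with 87.0, 49.7 and 62.2%. The latter was 199 bp from an SNV and had 1.93 times as many C3 as B6 counts.

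Intergenic regions made up 14 of the 24 named and 104 of all 200. Near Ndufaf4 (chr4:24817001-24818000, 22 CpGs, 198322 bp from an SNV) the B6 parents were at 59.0, 68.2 and 74.4% and the C3 parents at 11.4, 18.6 and 21.2%. The F1 animals were at 41.7, 46.2 and 52.8%, between the strains and apart from both. The difference was 49.8 points (log2 ratio difference 4.26, SE 0.20, adjusted p = 7.69e-17). The largest difference with B6 higher was 25935 bp from the start of Rab1, a small GTPase of the early secretory pathway (chr11:20075001-20075500, 10 CpGs). B6 parents were at 93.2, 94.9 and 96.6%, C3 parents at 28.8, 36.0 and 52.3% and F1 animals at 67.8, 79.2 and 98.1%. B6C3F1 animals were at 78.1 to 98.1% and overlapped B6, while C3B6F1 animals were at 67.8 to 79.5% and lay below it. The crosses overlapped each other and were not called apart (adjusted p = 0.320). Counts per CpG were 11.1 in C3 and 24.5 in B6, a ratio of 0.452, and the part of this in the difference was not tested. Near Slc24a3, a cation exchanger gene (chr2:144947501-144948500, 38 CpGs), B6 parents were at 87.7, 92.2 and 93.7%, C3 parents at 22.0, 39.8 and 59.0% and F1 animals at 77.6, 85.1 and 91.9%. Its 31-base words had a median of 165 copies in mm9.

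The remaining 7 named regions with B6 higher lay near Adam34, Hecw2, Vmn2r120, Btd, Cts8, Tmprss12 and Klk1b22. The differences ran from 48.0 points near Adam34 (chr8:44877001-44877500), where 24 of 31 CpGs of mm9 were in the table, to 34.8 points at chr7:51367501-51368000, 43 bp from the start of the kallikrein gene Klk1b22. At the region near Hecw2, a ubiquitin ligase gene (chr1:54256001-54257000), the strain means were 86.1% ± 0.989 (SD, n = 6) and 41.8% ± 4.22 (SD, n = 6), and the adjusted p of 3.10e-18 was the smallest of the named regions. Of the 4 called windows in Hecw2 or within 5 kb of it, 2 were higher in B6 and the others in C3. Near the biotinidase gene Btd (chr14:32498501-32499000) the F1 animals reached 84.0% ± 8.42 (SD, n = 12), against 86.7% in B6 and 47.6% in C3, with a C3 to B6 depth ratio of 0.659.

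**Figure D2:**
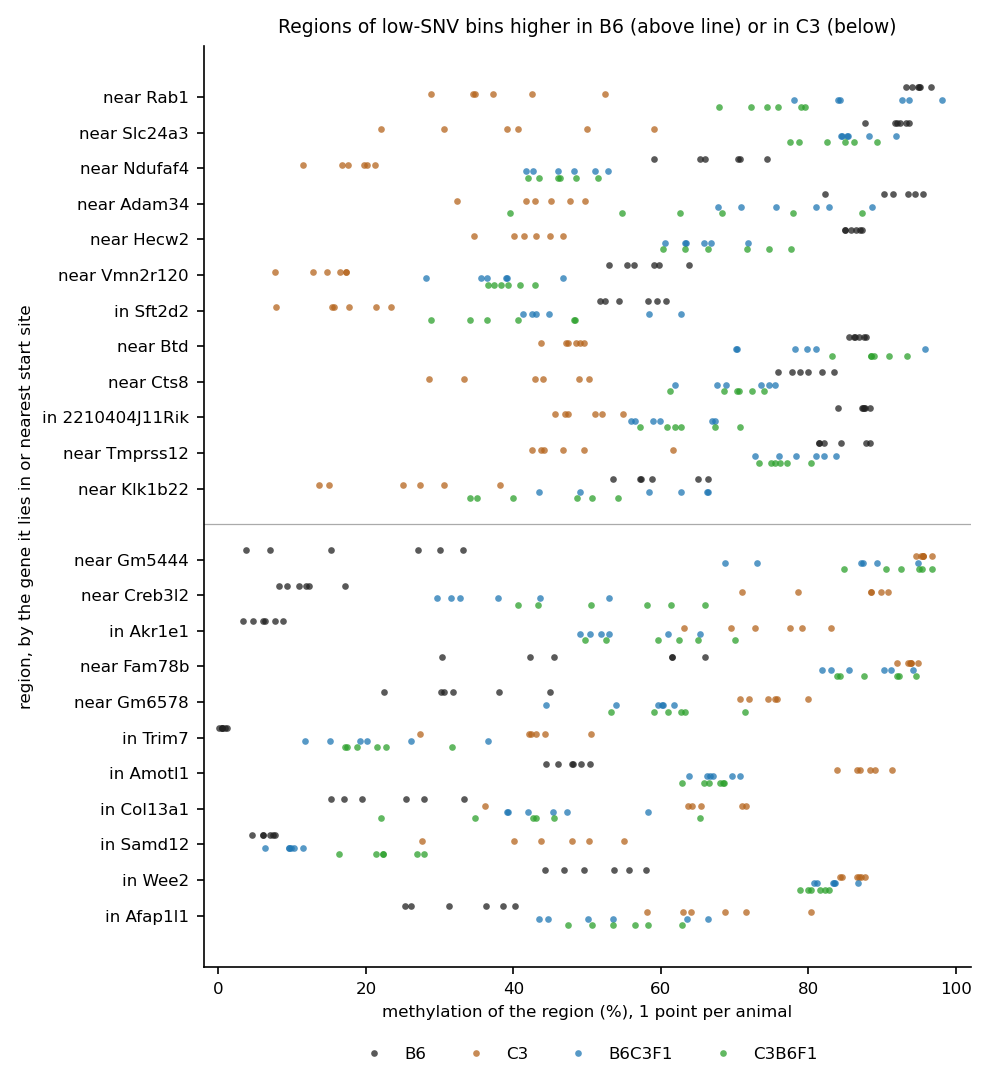
Methylation (%) of 23 of the named regions, with 1 point per animal for the 6 B6, 6 C3, 6 B6C3F1 and 6 C3B6F1 animals. The 12 regions above the line are higher in B6 and the 11 below in C3, and at the start of Samd12 the B6C3F1 animals (6.33 to 11.5%) lie below the C3B6F1 animals (16.4 to 27.9%).

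**Figure D3:**
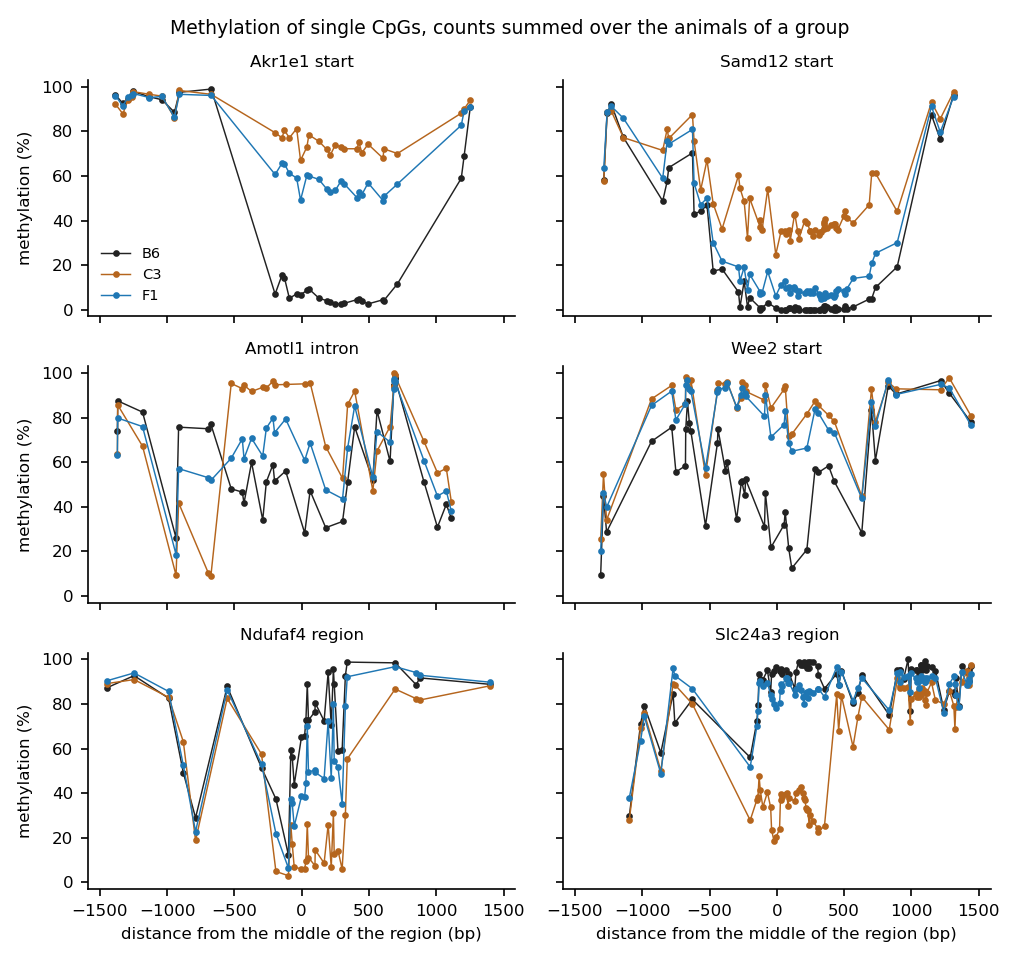
Methylation (%) of single CpGs around 6 named regions against the distance in bp from the middle of the region, with counts summed over the 6 B6, 6 C3 and 12 F1 animals and CpGs with at least 20 counts in a group. At the Akr1e1 start B6 drops from 98.9% to 7.1% between neighbouring CpGs while C3 goes from 96.6% to 79.4%.

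The pair of regions with the largest differences shared sequence with each other. At chr13:4941501-4942500 (34 CpGs, 170606 bp from the nearest start, that of Gm5444, and 638609 bp from an SNV) the B6 parents were at 3.76, 21.1 and 33.2%. The C3 parents were at 94.6, 95.5 and 96.8% and the F1 animals at 68.6, 89.8 and 96.7%. C3 animals hardly varied, B6 animals varied widely, and the F1 animals were near C3 at 87.9% ± 8.87 (SD, n = 12). At chr6:37414001-37415000 (35 CpGs, 21855 bp from the start of Creb3l2, which encodes a membrane-bound transcription factor) the B6 parents were at 8.19, 11.4 and 17.1%, the C3 parents at 71.0, 88.5 and 90.8% and the F1 animals at 29.6, 43.4 and 66.0%. Here the F1 animals lay between the strains without overlap. The log2 ratio differences were -6.84 (SE 0.52, adjusted p = 7.88e-09) and -6.12 (SE 0.35, adjusted p = 8.60e-13). In the printed sequences, the stretch beginning gagtgatgCG opens the first and recurs within the second.

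These regions had 363 words of 20 bases in common, or 37.0% of the words of the shorter. Another named region, 61048 bp from the start of Fam78b (chr1:168870001-168870500), shared 223 words (46.4%) with the first and 216 (44.9%) with the second. It was at 51.1% ± 14.0 (SD, n = 6) in B6, 93.6% ± 0.904 (SD, n = 6) in C3 and 88.4% ± 4.56 (SD, n = 12) in F1 animals. The 203 words found in all 3 regions were then looked up in the other windows, an alternative taken after the values were seen. Of the 175 windows of the blocks with at least 50 of them, 6 were called (3.43%), all higher in C3, and 4 of these windows belonged to the regions that gave the words. Among the other 171 windows 2 were called (1.17%), and in bins with more SNVs 5 of 199 (2.51%), again all higher in C3. Over all windows the shares called were 0.0561% in the blocks and 0.705% in the bins with more SNVs. Copies were mostly methylated in both strains, and the median over the 175 windows was 94.4% in B6 and 95.0% in C3. The reads counted at the 3 regions could thus come in part from other copies, and this was not tested.

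**Figure D4:**
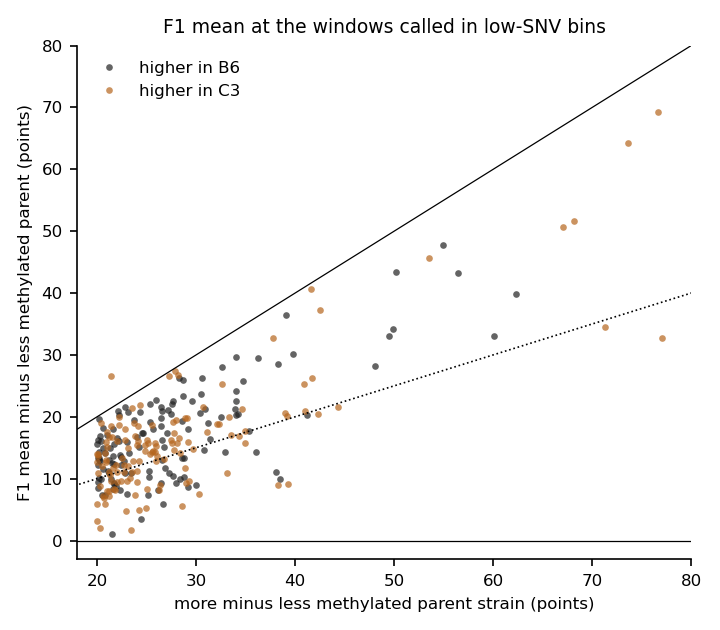
Mean of the 12 F1 animals above the less methylated parent strain against the difference between the strains, both in percentage points, with 1 point per called window (132 higher in B6, 135 in C3). The dotted line is the mean of the parents and the upper solid line the more methylated parent, and 266 of 267 points lie between the parents.

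F1 animals lay between the parent strains at nearly all called windows, and more often on the methylated side. The F1 mean was between the strain means in 266 of 267 windows, and in 6890 of the 6917 called windows of the other bins. The exception in the blocks, at chr1:184188001-184188500, had 62.3% in B6, 83.7% in C3 and 89.0% in F1 animals, and 93.4% of its words recurred in mm9. The F1 mean was nearer to the more methylated strain in 179 of the 267 windows, and in 3813 of the 6917. In the blocks it lay within the middle 50% of the range between the strains in 191, above it in 63 and below it in 13. Over the 132 windows higher in B6, the mean methylation was 70.5% ± 1.28 (SD, n = 6) in B6, 42.7% ± 1.54 (SD, n = 6) in C3 and 59.97% ± 1.84 (SD, n = 12) in F1 animals. Over the 135 higher in C3 it was 39.0% ± 0.784 (SD, n = 6), 67.6% ± 0.645 (SD, n = 6) and 55.6% ± 0.976 (SD, n = 12). Parental values at these windows are a description, because they chose them.

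Position was also computed per F1 animal, as its distance from the C3 mean over the distance from C3 to B6, summed over the called windows. In the blocks it was 0.518 ± 0.0281 (SD, n = 12), with a range of 0.477 to 0.561. The sexes did not overlap, with F1 males at 0.477 to 0.506 (0.494 ± 0.0108, SD, n = 6) and F1 females at 0.523 to 0.561 (0.542 ± 0.0158, SD, n = 6), so that the mean was above 0.5 through the females. In bins with more SNVs the males were at 0.602 and the females at 0.603. The parental means pool sires and dams. Against parents of the same sex, a choice made after the values were seen, the F1 males were at 0.496 to 0.525 and the F1 females at 0.504 to 0.542, which overlap. The mean was 0.518 again (exact p = 0.00146). With the pooled parents, against 0.5 the two-sided exact sign-flip permutation test gave p = 0.0483 over both sexes, and 0.0580 adjusted over 12 tests of F1 position. This call did not hold under several of the alternatives, among them windows with even depth (0.516, exact p = 0.107) and at least 100 counts in each animal (0.504, exact p = 0.623), and in 14 of 24 fits that left out an animal. It did hold with windows called at 10 points (0.561, exact p = 0.000488) and with the median over windows (0.534, exact p = 0.0103). In bins with more SNVs the position was 0.603 ± 0.00382 (SD, n = 12), nearer to B6, and all 12 animals were lower in the blocks, with a mean difference of -0.0847 (exact permutation test, p = 0.000488, the smallest possible, adjusted p = 0.000732). With even depth in both sets this difference was -0.0308 (exact p = 0.00732), and with windows called at 10 points it was -0.0306 (exact p = 0.00195). These tests hold the parental means fixed and cover only the spread among F1 animals.

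Measured instead from the less to the more methylated strain, a choice made after the values were seen, the position in the blocks was 0.601 ± 0.0436 (SD, n = 12), between 0.536 and 0.67. In the other bins it was 0.526 ± 0.0181 (SD, n = 12), and all 12 animals were higher in the blocks, by 0.0754 (exact permutation test, p = 0.000488, adjusted p = 0.000732). In the blocks the position between C3 and B6 was 0.622 at windows higher in B6 and 0.419 at windows higher in C3, so that F1 animals leaned to the methylated strain in both. At the windows higher in B6 the sexes did not overlap, with F1 males at 0.537 to 0.585 and F1 females at 0.653 to 0.736, and against parents of the same sex they were at 0.578 to 0.626 and 0.612 to 0.695. At the windows higher in C3 males were at 0.374 to 0.465 and females at 0.380 to 0.454. In the other bins it was 0.629 and 0.576, on the B6 side in both. By SNV class the position toward the methylated strain was 0.592 with 0 SNVs, 0.623 with 1 and 0.517 with 500 to 889. The position toward B6 was 0.522, 0.508 and 0.632 in the same classes. There the median ratio of C3 to B6 counts at called windows was 0.955, 0.959 and 0.624.

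**Figure D5:**
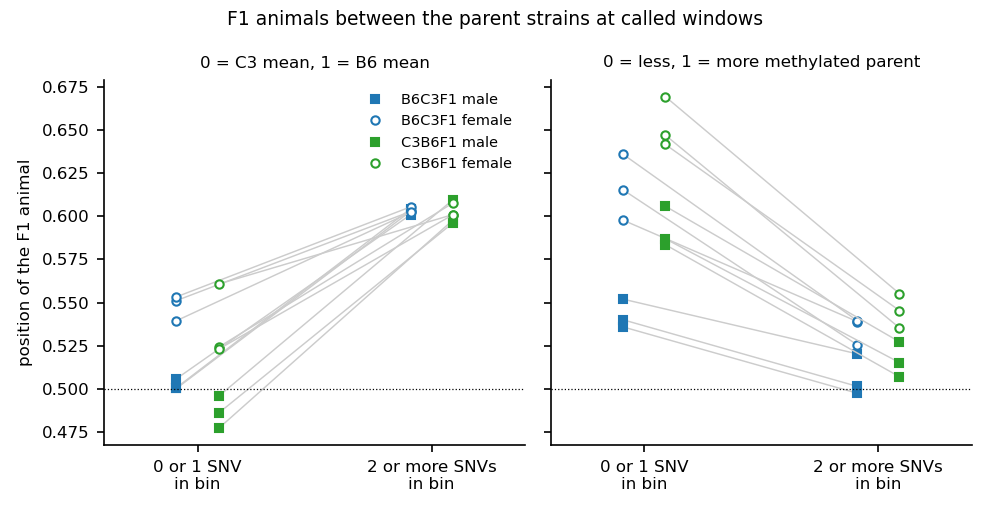
Position of each of the 12 F1 animals between the parent strains, unitless, at windows called in bins with 0 or 1 SNV and in bins with 2 or more, with a line joining the values of an animal, filled squares for males and open circles for females. On the left, from C3 (0) to B6 (1), the means are 0.518 and 0.603, and on the right, from the less (0) to the more methylated strain (1), they are 0.601 and 0.526.

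Among the 24 named regions the position toward the methylated strain ran from 0.26 at the start of Samd12 to 0.93 near Btd. It was over 0.75 in 8 regions, 4 of each direction. These were the regions near Rab1, Slc24a3, Btd and Tmprss12, where B6 was higher, and the starts of Akr1e1 and Wee2 with the regions near Gm5444 and Fam78b, where C3 was higher. The other 16 were between 0.25 and 0.75. All 12 F1 animals lay above every animal of the less methylated strain in 18 regions, and below every animal of the more methylated strain in 7. These counts describe regions picked for large differences without overlap of the strains. They were not taken over the other called windows, so they give no general share.

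The reciprocal crosses differed little in the blocks. No window was called between B6C3F1 and C3B6F1, and 10 were called over all autosomes (0.000686%). By limma 30952 windows of the blocks (6.51%) had an unadjusted p below 0.05, 3 of them with at least 20 points. The quasi-binomial model also called 0. Only 7 windows passed the adjusted p alone (0.00147%, against 0.00192% of all windows). A pair of these were at the start of Samd12, with 2.53% ± 0.971 (SD, n = 6) in B6C3F1 and 18.5% ± 6.34 (SD, n = 6) in C3B6F1 in the window from 53733501 (adjusted p = 5.43e-06), and 4.56% and 16.7% in the window from 53734001 (adjusted p = 0.00321). The others were in Cradd, with 96.5 and 87.6%, in Klf5, with 74.8 and 58.4%, 789 bp from the start of Cmah, 13655 bp from that of Epha2 and on chromosome 4 at 1204027 bp from the nearest start, that of Tyrp1. The strains were themselves called at Samd12 and Cradd. They were not at the other 4, though near Cmah they differed by 19.7 points (adjusted p = 7.67e-06). At the windows called between the strains, the position of the crosses from C3 to B6 was 0.525 in B6C3F1 and 0.511 in C3B6F1 (two-sided exact permutation test, p = 0.407, also adjusted). Toward the more methylated strain it was 0.579 ± 0.0426 (SD, n = 6) and 0.623 ± 0.0354 (SD, n = 6), with C3B6F1 the higher (exact p = 0.0887, adjusted p = 0.0968). Of the 267 windows, 2 had no overlap between the crosses (0.749%), where 0.315% of all windows of the blocks had none.

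Against the mean of the parents, F1 animals were called in 9 windows of the blocks (0.00189%, against 0.00281% of all windows), each time higher (0.0024% of all windows were called in this direction). In 2 of the 9 the strains differed, near Slc24a3 and near Gm5444. In the other 7 the sires were at 77.3 to 92.1%, the dams at 29.7 to 52.4% and the F1 females at 75.2 to 95.1%. At chr5:139338501-139339000, for example, the sires were at 87.0%, the dams at 42.3%, the F1 males at 88.7% and the F1 females at 90.6%. A window in an intron of Myst4, a histone acetyltransferase gene (chr14:22380501-22381000), had 78.2, 33.8, 77.4 and 82.1% in the same order. The comparisons below share these animals.

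Sires and dams differed at 563 windows of the blocks by at least 20 points (0.118%, against 0.104% of all windows and 0.0972% of those in bins with 2 or more SNVs). Of the 563, 201 were higher in sires (0.0423%, against 0.0357% of all windows) and 362 were higher in dams (0.0761%, against 0.0684%). The means of F1 males and females were no part of this contrast, though F1 animals entered the variance estimate and the minimum of counts. At the 362 windows higher in dams all 362 had the F1 females higher, with means of 45.8% ± 3.27 (SD, n = 6) in F1 males and 68.8% ± 1.54 (SD, n = 6) in F1 females (exact permutation test, p = 0.00216, the smallest possible, adjusted p = 0.00325 over 3 tests). At the 201 higher in sires 170 had the F1 males higher, but the means were only 7.34 points apart, 67.8% ± 0.955 (SD, n = 6) and 60.4% ± 1.20 (SD, n = 6), with the same p. The largest was in an intron of Dock1, which encodes an activator of Rac (chr7:142235501-142236000), with 26.4% in sires, 89.3% in dams, 32.7% in F1 males and 88.8% in F1 females (adjusted p = 2.16e-15).

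Dams were lower than F1 females in all 99 windows called between them (0.0208%, against 0.0198% of all windows, and 0.019% in this direction). With a minimum of 10 points 50 of 616 windows were higher in dams. Methylation over these windows was 44.9% ± 2.01 (SD, n = 6) in dams and 71.2% ± 0.963 (SD, n = 6) in F1 females. The males differed by less, with 70.4% ± 1.07 (SD, n = 6) in sires and 71.2% ± 0.333 (SD, n = 6) in F1 males (exact permutation test, p = 0.0866). The windows were called on the females, and this choice favours a smaller difference in the males. Dams and F1 females differ both in having borne litters and in genotype, which cannot be told apart in this contrast alone.

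Few genes of the lists carried a strain difference in the blocks. Over all protein-coding genes, 119 of the 6791 with a window in the gene or within 5 kb had a called window (1.75%), 45 with a window higher in B6 and 76 with one higher in C3. None was called among 10 imprinted genes, 8 genes of the methylation machinery, 8 hepatocyte transcription factors, 4 secreted liver proteins and 9 sex-biased or xenobiotic enzymes. By limma 0 of these also had a window of at least 20 points at an unadjusted p below 0.05, and the quasi-binomial model called 0. At the background share, lists of this size would be likely to hold none. Of 117 Zfp genes, many of which encode DNA-binding zinc finger proteins, 2 had one (1.71%). In Zfp560 the B6 parents were at 53.3, 62.0 and 69.0%, the C3 parents at 35.1, 39.4 and 42.9% and the F1 animals at 40.5, 51.1 and 61.0%. In Zfp809, a silencer of retroviral sequences, the B6 parents were at 22.3, 42.0 and 58.4% and the C3 parents at 16.5, 19.9 and 23.8%, with some overlap. Of 195 olfactory receptor genes 1 had a called window (0.513%), Olfr676, with 61.5% in B6, 86.6% in C3 and 77.7% in F1 animals. The lists differ in windows per gene, with 672 over the 195 olfactory receptor genes and 302553 over all 6791 genes. Shares of genes are therefore not alike between lists, and a lower share does not show fewer called windows.

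Between sires and dams 278 of all 6791 genes had a called window (4.09%). The imprinted genes, the methylation machinery, the secreted proteins and the olfactory receptor genes had 0 by limma, also 0 at an unadjusted p below 0.05 with at least 20 points and 0 by the quasi-binomial model, and 3 of 117 Zfp genes had one (2.56%). Among the sex-biased enzymes and receptors 3 of 9 had one, over 166 windows. In a window of Cyp2a4, a female-biased steroid hydroxylase gene (chr7:27093501-27094000), sires were at 89.1% ± 2.69 (SD, n = 6), dams at 39.4% ± 10.4 (SD, n = 6), F1 males at 85.7% and F1 females at 56.1%. In Cyp2b13 the values were 91.1, 49.3, 89.9 and 58.0%. The prolactin receptor gene Prlr had called windows that were all higher in sires, but the place of its F1 females varied. In the same order, its window of largest difference (chr15:10156001-10156500) had 52.7, 15.4, 45.8 and 24.3%. Its window at chr15:10280001-10280500 had 92.5, 67.0, 93.6 and 91.5%, with the F1 females near the males. Of the hepatocyte transcription factors 2 of 8 had one, over 762 windows. Cux2, a female-biased repressor, was higher in sires, with 78.2% and 19.3% in its window of largest difference and 76.9 and 25.4% in F1 males and females. Nr5a2, a nuclear receptor, was higher in dams, with 56.4 and 93.1% and with 66.4 and 88.9% in F1 males and females.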

How the data were processed

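The authors sequenced bisulfite-converted liver DNA of 24 mice and deposited, per CpG and animal, the methylated and the unmethylated counts of both strands, in 48 columns, all of which were used. Per the labels' processing notes, CASAVA 1.8.2, Bismark 0.7.8, Bowtie 0.12.8 and Picard 1.110 were used with mm9, and by the study's methods a CpG was kept where the reference and both strains have it. The list of SNVs was deposited with the base of each strain, and its caller is not given in the sources used here. The 2867244 positions were used as they stand. ChIP samples were not analysed here.

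Positions were checked to be CG in mm9, and GENCODE gene models of that build gave start sites, exons and introns. Counts were summed in windows of 500 bp. limma 3.58.1 (R 4.3.3) was fitted to log2((methylated + 1)/(unmethylated + 1)) over all 1456902 autosomal windows, with a mean for each of 8 groups and trended, robust variances. A window needed an adjusted p below 0.05 and 20 points. A quasi-binomial model of the counts, with Python 3.11.15 and scipy 1.17.1, was an alternative. DSS and Metilene, the tools of the study, were not run. A region's test values are those of its window of largest difference. Single values per animal were compared by two-sided exact tests, adjusted within families of 8, 12 and 3 tests.

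Named were the 12 regions per direction of largest difference in which the strains did not overlap and both had at least 10 counts per CpG, and in the other window comparisons the 5 of largest difference, some given only as counts. Some named regions and sequences are not reported here. The regions, gene lists and tests were chosen with earlier results of these data known. Replicate numbers were not used to pair animals in the main fit. Sequences were read from mm9. Alternatives were a pseudocount of 5, the arcsine scale, a replicate block, 100 counts, 10 points, bins with 0 SNVs, bins with 2 low neighbours, even depth and leaving out each animal. Tested on simulated data of chromosome 19 for B6 against C3 (42678 windows), limma called 44 of 100 windows changed by 20 points, 100 of 100 changed by 40 and 0 of 42478 unchanged, and the quasi-binomial model 32, 69 and 0. Marker promoters of macrophages were at medians of 62.5 to 89.3%, of endothelium at 2.18 to 75.7%, of stellate cells at 2.08 to 22.5% and of bile duct at 7.48 to 32.5%.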

Additional observations from a re-analysis of the deposited data

Results flagged for a closer look

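In all, 108 groups of animals were tested, most at the named regions and some for block methylation, block depth and F1 position. Of these groups 5, all at named regions, had an animal whose gap to the nearest other exceeded Dixon's 95% critical value. Chance gives about 5%. Near Slc24a3 (chr2:144947501-144948500), B6 male replicate 1 was at 87.7% and the other B6 parents were between 91.8 and 93.7%. In 2210404J11Rik (chr17:15190501-15192000), B6 male replicate 3 was at 84.0% and the others at 87.3 to 88.3%. Near Tmprss12 (chr15:100102501-100103000), C3 male replicate 1 was at 61.7% and the others at 42.5 to 49.6%. C3 female replicate 3, the animal with the lowest depth at 19.4 counts per CpG, was low in 2 regions. It was at 27.3% at the start of Trim7 (chr11:48639501-48640000), where the other C3 parents were at 42.2 to 50.5%, and at 36.2% in the intron of Col13a1 (chr10:61435001-61435500), where they were at 63.7 to 71.5%. In each region the strains did not overlap with these animals included, which the rule for naming regions required.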

How the results depend on the processing

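Counts of called windows were within 1.5 times of 267 (strain), 9 (F1 against midparent), 0 (crosses), 0 (strain by sex), 563 (sires against dams) and 99 (dams against F1 females) under a pseudocount of 5, the arcsine scale and the quasi-binomial model. These settings change only the p, and nearly every window of at least 20 points passed it (267 of 268, 9 of 10, 563 of 563 and 99 of 101 for those with calls), so these counts could hardly rise. By the adjusted p alone, added after seeing the data, the strain and sire-dam counts were 13264 and 4707, and 7329 and 2598 by the quasi-binomial model. With 100 counts in each animal the strain count was 204, and sires against dams fell to 375. A minimum of 10 points gave 2910, 149, 6, 1, 2773 and 616 windows in the same order, of which 1054 were higher in B6, 143 in F1 animals, 2 in B6C3F1, 1176 in sires and 50 in dams. The strain count was 190 in bins with 0 SNVs, 197 in bins with low neighbours, 255 with even depth and, added after seeing the data, 191 without windows of recurring words. Leaving out each animal in turn gave 260 to 285, 7 to 11, 0, 0, 540 to 595 and 84 to 114. Replicate numbers were not used to pair the animals in the main fit. The 48 pairs of the same number that were compared correlated at -0.00741 to 0.0191, which cannot show whether the numbers mark families. With the replicate block the counts were 267, 9, 0, 0, 563 and 99, of which the counts above 0 are limited in the same way. By the adjusted p alone the strain and sire-dam counts were then 13233 and 4623.

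The F1 position of 0.518 was no longer past 0.05 in bins with 0 SNVs (0.522), in bins with low neighbours (0.515), with 100 counts (0.504) and with even depth (0.516). It was 0.561 with windows called at 10 points and 0.534 as a median, both past 0.05, and the cause was not tested. Leaving out an animal gave 0.509 to 0.525. Its difference from the other bins was -0.0924 to -0.0798 without an animal and -0.0494 with 100 counts, -0.0308 with even depth and -0.0306 with windows called at 10 points, and it reads 0.0754 when position is measured toward the more methylated strain, which by construction is another quantity. The offset of methylation between the strains was -1.13 to -0.752 without an animal, and the log2 depth difference was 0.11 without each animal and 0.06 with 100 counts. Of 1121 values of 39 named windows under the alternatives none reversed and 1 call was lost, that of F1 animals against midparent near Gm5444 under the quasi-binomial model. Apart from leaving out an animal, these alternatives kept the difference itself and could not reverse it. The named windows were also picked for large differences, so that few calls could be lost. A window could hold as few as 30 counts in an animal. In simulation, of 100 windows changed by 20 points 94 passed the adjusted p and 44 also the 20-point minimum. Insertions and rearrangements, which the SNV list does not hold, were not tested.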
